A study of Rattus norvegicus with 4 samples.

Results

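The genes described here are 10 that serve protein folding and quality control in the endoplasmic reticulum (ER): the chaperone genes Hspa5, Hyou1, Hsp90b1 and Calr, the oxidoreductase genes Pdia3, Pdia4 and Pdia6, the transcription factor gene Xbp1, and Herpud1 and Sel1l of ER-associated degradation. They were taken as a named list, and every probe set whose platform annotation gives only that gene was used. A probe set is a group of short probes that reports on 1 transcript. The rule found 12 probe sets for all 10 genes, out of 31042 probe sets and 14217 named genes, with 2 probe sets each for Hyou1 and Pdia3. The study measured total RNA of rat adrenal medulla on 4 single-colour oligonucleotide arrays, 2 from unstressed animals and 2 from rats immobilized for 2 h, a restraint used as a stressor. Strain, sex, age, pooling of animals and the interval before tissue was taken are not given in the labels used here. Nor do they state that arrays of 1 group come from separate animals. The p-values below therefore reflect the spread between these samples, and that spread may be technical.

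The ER is where secreted and membrane proteins fold, and the medulla's chromaffin cells make large amounts of such cargo for their hormone granules. When unfolded protein builds up, the sensors ATF6, IRE1 and PERK start the unfolded protein response (UPR). ATF6 and the spliced form of XBP1 raise chaperone and degradation genes, partly through a promoter motif called the ER stress response element (ERSE), while PERK acts through the translation factor eIF2-alpha and ATF4. Proteins that fail to fold are moved out to the cytosol for the proteasome by ER-associated degradation (ERAD), in which SEL1L and the ubiquitin ligase SYVN1 form the core of 1 membrane complex and HERPUD1 is a ubiquitin-like partner.

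Most of the members have a known element of the UPR in their promoters. ERSE is known from chaperone genes of this kind, so its presence in them is a description and no test. RefSeq promoter windows on the rat build GRCr8, from 250 bases before to 50 after each annotated start, were at hand for 8 of the 10 genes (not Pdia3 and Pdia6). An exact ERSE, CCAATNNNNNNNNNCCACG on either strand, was found in Hspa5, Hsp90b1, Calr and Xbp1. The related ERSE-II, ATTGGNCCACG, was found in Herpud1 and Hyou1. The first motif occurs in 0.0765% of the 27457 genes with a window and the other in 0.0619%. The elements are given below as they read along the gene, because they sort the members by their promoters. Capitals mark the fixed letters and lower case the spacer.

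Hspa5 (ERSE, bases -43 to -25 from the start): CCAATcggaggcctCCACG
Hsp90b1 (ERSE, -176 to -158): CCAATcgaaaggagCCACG
Hsp90b1 (ERSE on the opposite strand, -72 to -54): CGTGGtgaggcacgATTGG
Xbp1 (ERSE, -65 to -47): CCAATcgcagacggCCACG
Calr (ERSE on the opposite strand, -232 to -214): CGTGGtcgaccctgATTGG
Herpud1 (ERSE-II, -124 to -114): ATTGGgCCACG
Hyou1 (ERSE-II on the opposite strand, -188 to -178): CGTGGgCCAAT
Hyou1 (ERSE-II on the opposite strand, -88 to -78): CGTGGcCCAAT

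The windows of Pdia4 and Sel1l held neither element, which says only that these letters are not there. The Hyou1 window with the ERSE-II matches also held TGACGTGG, the UPR element (UPRE) bound by XBP1, at -191 to -184, overlapping the farther ERSE-II. Hyou1 has a further annotated start downstream, and the window of that start held no ERSE, ERSE-II or UPRE. The UPRE occurs in 0.681% of genes. The exact cAMP response element TGACGTCA, found in 2.0% of genes, was in none of the 8 members. Near matches were not searched, so this too says only that these exact letters are not there. The bases before the start are printed in full for Hspa5 and Herpud1, the members with the largest change in each direction.

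Hspa5, chr3:38452766-38453015, plus strand: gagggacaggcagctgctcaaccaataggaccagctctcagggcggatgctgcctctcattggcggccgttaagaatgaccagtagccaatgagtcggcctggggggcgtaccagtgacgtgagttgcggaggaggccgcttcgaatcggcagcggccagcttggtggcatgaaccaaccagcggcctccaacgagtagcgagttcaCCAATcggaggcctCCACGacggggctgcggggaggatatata
Herpud1, chr19:10614708-10614957, minus strand: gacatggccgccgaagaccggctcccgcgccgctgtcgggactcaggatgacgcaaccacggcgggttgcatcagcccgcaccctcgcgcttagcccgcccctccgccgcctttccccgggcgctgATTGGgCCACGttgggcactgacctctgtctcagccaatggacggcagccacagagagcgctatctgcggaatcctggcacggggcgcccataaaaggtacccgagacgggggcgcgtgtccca

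After 2 h of immobilization 1 of the 10 genes fell, none rose, and 9 did not pass the test. The gene that fell was Herpud1, at about 1.96-fold lower. Over the whole array 11.7% of tested probe sets rose and 19.4% fell. A call means a limma p under 0.05 after Benjamini-Hochberg adjustment. By gene, with the brightest probe set of each, 11.2% rose and 21.8% fell. The count for the members is thus no higher than that background. All 12 member probe sets were bright enough to be tested, none of their readings lay in the range of the array's bacterial control probe sets, and their lowest intensity was 1002. The groups did not overlap at 6 of the 12, against 67.8% of all tested probe sets, and of those 6 the immobilized arrays were higher at 3 and lower at 3. The median log2 change of the 10 genes was 0.06, beside -0.14 for all tested genes. A log2 change here is the difference of mean log2(intensity + 16), immobilized minus unstressed.

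**Figure D1:**
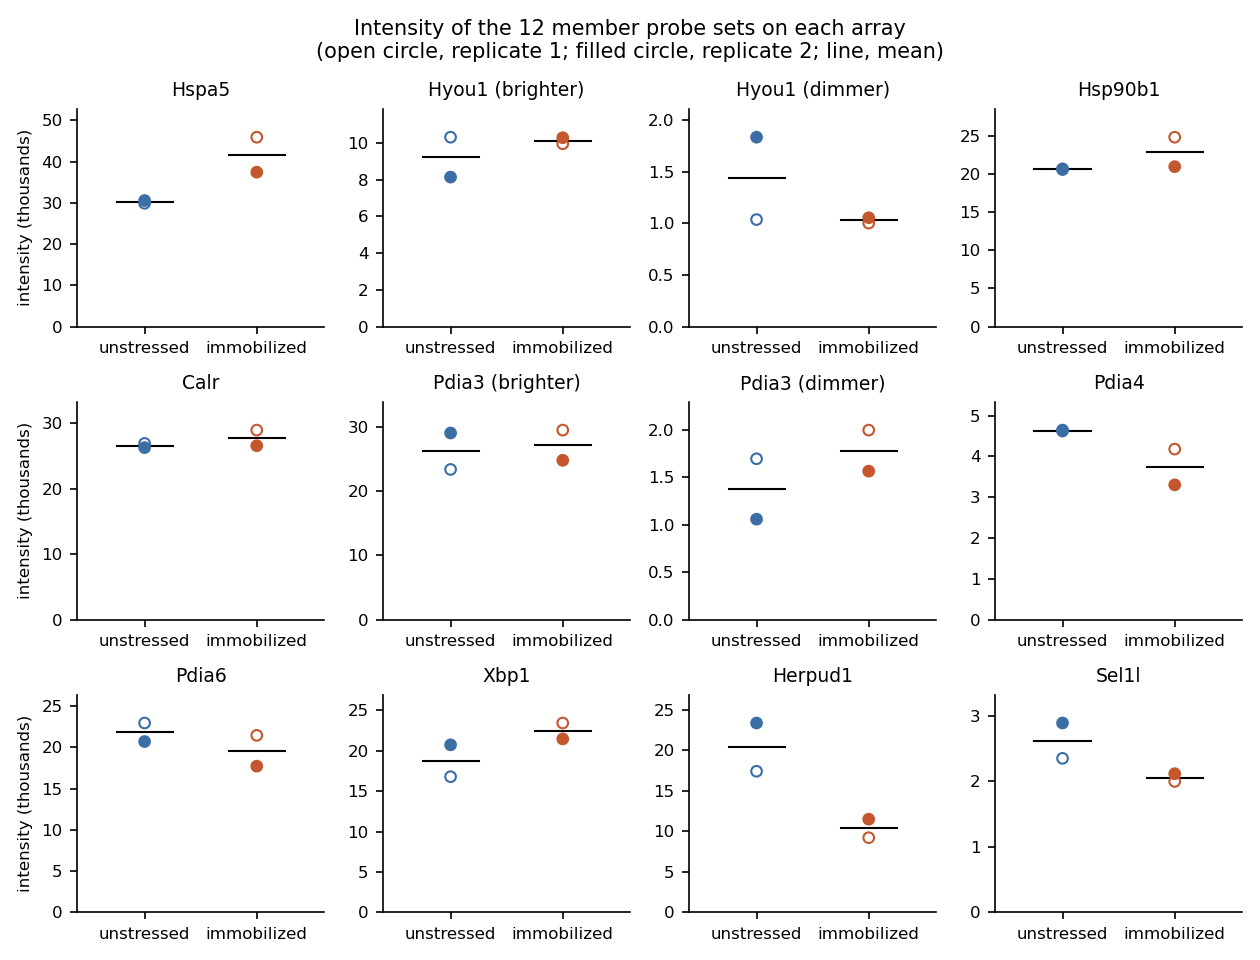
Intensity (divided by 1000) on each of the 4 arrays for the 12 member probe sets, each panel on its own scale from 0, with a line at the group mean. Herpud1 is lower on both immobilized arrays, and Hspa5 is higher on both, by an amount that differs between them.

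Hspa5 encodes BiP, the ER's Hsp70, which holds unfolded chains and keeps the UPR sensors quiet. The unstressed arrays gave intensities of 29911 and 30575, and those of immobilized rats 45939 and 37455. Both immobilized readings were above both unstressed readings, and the pair of immobilized arrays differed far more than the unstressed pair. The log2 change was 0.46 ± 0.15 (SE, n = 2 per group), 1.37-fold, with a 95% interval of 0.09 to 0.82 and an adjusted p of 0.0614 in limma, which did not pass. It passed after quantile normalization (0.39, adjusted p = 0.00691), after centring each array on its median (0.60, adjusted p = 0.0196) and without immobilized 2 (0.60, adjusted p = 0.0441). Over 12 alternatives the change ran from 0.31 to 0.60 and the adjusted p from 0.00691 to 0.200, under 0.05 in 3. The gene lies at percentile 99.3 of level. Between percentiles 99 and 99.5 155 probe sets had log2 changes with an SD of 0.262 and 5.81% were called, against 0.713 and 34.4% between percentiles 90 and 95. The part that this narrower range plays in the value of Hspa5 was not tested.

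Hyou1, a large Hsp70 relative that works as a nucleotide exchange factor for BiP, had probe sets that went opposite ways. The brighter read 10305 and 8133 in unstressed tissue against 9946 and 10277 after immobilization, a log2 change of 0.14 ± 0.15. The dimmer read 1037 and 1834 against 1002 and 1054, a change of -0.42 ± 0.30. In both the groups overlapped and the unstressed pair was the wider, and neither passed (adjusted p = 0.499 and 0.324 in limma). The dimmer value turned on the high unstressed 2 reading: the change was -0.012 without that array (limma adjusted p = 0.980) and -0.83 without unstressed 1 (adjusted p = 0.0281). The mean of both probe sets gave -0.14.

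Hsp90b1, the ER's Hsp90 (GRP94), read 20560 and 20652 unstressed against 24794 and 20940 immobilized. The second immobilized array was barely above the unstressed pair, and the log2 change of 0.14 ± 0.14 did not pass (adjusted p = 0.458 in limma). Its interval of -0.18 to 0.47 leaves out a 2-fold change in either direction, and the change was 0.023 without immobilized 1 and 0.27 without immobilized 2. Quantile normalization turned the sign, to -0.02. Calr, the gene for calreticulin, a lectin chaperone that binds glycoproteins and calcium, read 26886 and 26243 against 28915 and 26533. The groups overlapped, the change was 0.06 ± 0.13 with an interval of -0.24 to 0.37, and it too turned sign after quantile normalization (-0.08) and without immobilized 1 (-0.0016).

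The oxidoreductases form and rearrange disulfide bonds. Pdia3 (ERp57), which works with calreticulin and calnexin on glycoproteins, read 23354 and 29024 against 29475 and 24775 on its brighter probe set, with groups that overlapped and a log2 change of 0.05 ± 0.16. Its dimmer probe set read 1695 and 1058 against 1997 and 1565, a change of 0.40 ± 0.28. Neither passed (adjusted p = 0.831 and 0.316 in limma), and the dimmer value depended on the unstressed array kept, at 0.73 without unstressed 1 (adjusted p = 0.0465) and 0.060 without unstressed 2 (adjusted p = 0.879). The brighter turned sign after quantile normalization (-0.09).

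Pdia4 (ERp72) read 4624 and 4646 unstressed and 4180 and 3303 immobilized. Both immobilized readings were lower, but the log2 change of -0.32 ± 0.16 did not pass (adjusted p = 0.172 in limma, interval -0.69 to 0.06), and it ran from -0.49 without immobilized 1 to -0.15 without immobilized 2. Pdia6 (P5), which attenuates the IRE1 and PERK sensors, read 22968 and 20721 against 21469 and 17732. Those groups overlapped and the change was -0.16 ± 0.15 (adjusted p = 0.441 in limma), or -0.30 and -0.023 without immobilized 1 and immobilized 2.

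Xbp1 encodes the transcription factor that IRE1 activates by cutting its mRNA. The labels and files do not say whether this probe set tells the cut form from the uncut form, so it is read as total Xbp1 RNA. Intensities were 16783 and 20724 without immobilization and 23422 and 21455 with it. The immobilized readings were the higher, the lower of them only just, and the log2 change of 0.27 ± 0.15 did not pass (adjusted p = 0.218 in limma, interval -0.09 to 0.62). It was 0.11 without unstressed 1 and 0.42 without unstressed 2.

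**Figure D2:**
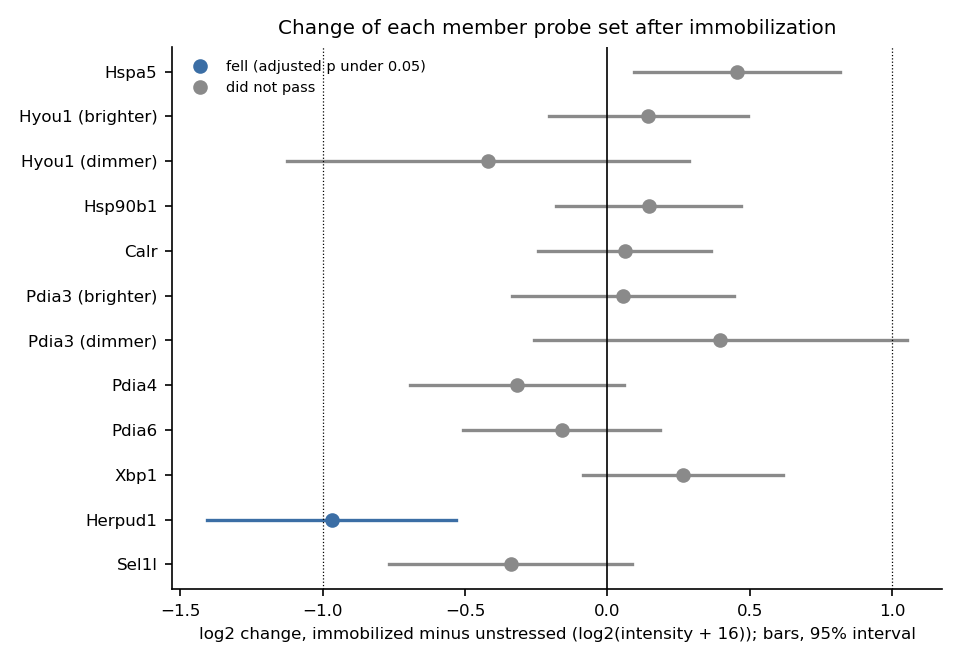
Log2 change of each member probe set (points) with the 95% interval of the moderated limma fit (bars), and dotted lines at a 2-fold change. Only the interval of Herpud1 lies below 0 with an adjusted p under 0.05, and that of Hspa5 lies above 0 but missed the threshold.

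Herpud1, whose protein sits in the ER membrane and helps bring substrates to the SYVN1 complex, had the largest change of the 10 genes. Unstressed tissue gave 17392 and 23337, a mean of 20365 ± 4204 (SD, n = 2), and immobilized rats gave 9206 and 11487, a mean of 10347 ± 1613. The highest immobilized reading was well under the lowest unstressed reading. The log2 change was -0.97 ± 0.18 with a 95% interval of -1.41 to -0.53 and an adjusted p of 0.00925 in limma. Over 12 alternatives the change ran from -1.18 to -0.76 and the adjusted p from 7.3e-04 to 0.0751, and the call was lost only without immobilized 1 (-0.81, adjusted p = 0.0751).

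Sel1l, the adaptor of the same complex, read 2353 and 2893 unstressed and 2000 and 2119 immobilized. Both immobilized readings were lower, and the log2 change of -0.34 ± 0.18 did not pass (adjusted p = 0.195 in limma, interval -0.77 to 0.09). It was -0.49 without unstressed 1 and -0.19 without unstressed 2. Of the 11 probe sets that did not pass, the intervals of 9 leave out a 2-fold change in either direction. The exceptions were the dimmer probe sets of Hyou1 and Pdia3. Like the p-values, these intervals rest on a spread between arrays that may be technical, so they do not exclude such a change between animals.

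Hspa5 and Herpud1 went opposite ways on the same arrays. The Herpud1 over Hspa5 ratio, which a single factor per array leaves nearly unchanged, was 2.68-fold lower in the immobilized group, with no overlap between groups. A difference between arrays that depends on intensity does not cancel in it. This pair was chosen after the values were seen, so the ratio is a description with no test.

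**Figure D3:**
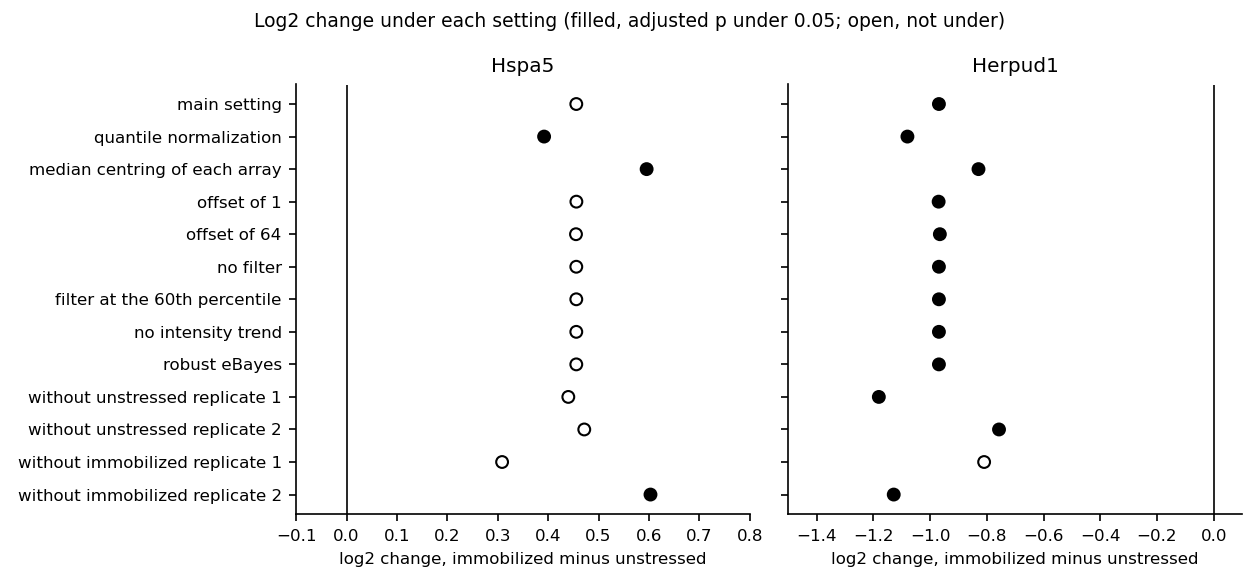
Log2 change of Hspa5 (left) and Herpud1 (right) under the main setting and each of 12 alternatives, filled where the adjusted p was under 0.05. Hspa5 stays above 0 and passes in 3 alternatives, while Herpud1 stays below 0 and passes in 11.

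The wider pathway was read from 5 lists, taking the brightest probe set of each gene. The counts of each list stand beside the 11.2% of all tested genes that rose and the 21.8% that fell. Of 20 other tested chaperones and co-chaperones 3 rose and 4 fell, with a median log2 change of -0.11. Dnajb9 (ERdj4), a BiP partner that restrains IRE1, read 6077 and 8026 unstressed against 13658 and 14949 immobilized, the order used from here on, and rose by 1.03 ± 0.16, or 2.04-fold. Manf, a small secreted protein that binds BiP, read 8180 and 7402 against 13696 and 11697, and rose by 0.70 ± 0.14. Dnajc1 rose by 0.48. Serpinh1 (HSP47), the collagen chaperone, read 19582 and 21029 against 12534 and 11197, a change of -0.78 ± 0.13. Sil1, an exchange factor of BiP like Hyou1, changed by -0.69, and Dnajc10 (ERdj5), a disulfide reductase, by -0.48.

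Among these only the call on Serpinh1 held under all 12 alternatives. That on Dnajb9 failed on omitting immobilized 2 (limma adjusted p = 0.0645), that on Manf without immobilized 1 (0.0868) or immobilized 2 (0.0502), and those on Dnajc1, Sil1 and Dnajc10 without either. Further settings ended the call on Dnajc1 (no filter, no trend, or unstressed 1 left out), Sil1 (median centring) and Dnajc10 (median centring or no trend). Other probe sets reached -0.03 for Dnajc1, -0.24 for Dnajc10 and -0.29 for Serpinh1. The remaining fall was Mesd, at -0.47, whose probe sets ran from -0.83 to 2.58. With immobilized 1 left out the list had 1 rise and 1 fall, and with immobilized 2 left out it had 0 and 1. Dnajb11 and Dnajc3, further BiP co-chaperones, did not pass at 0.41 and 0.29, nor did Canx, the membrane lectin calnexin, at -0.07. Dnajb11 passed after quantile normalization (0.48, adjusted p = 0.0447 in limma), after median centring (0.55, adjusted p = 0.0327) and without unstressed 2 (0.47, adjusted p = 0.0418).

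Of 14 other oxidoreductases 1 rose and 0 fell, with a median of 0.11. Txndc5 (ERp46) read 18184 and 19536 against 37645 and 32715, a rise of 0.90 ± 0.14, or 1.86-fold (adjusted p = 0.00431 in limma). Its call held under all 12 alternatives, with values from 0.78 to 1.04.

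Of 25 other ERAD genes 4 rose and 4 fell, with a median of -0.01. Man1b1, a mannosidase that trims glycans of misfolded proteins, read 8125 and 7561 against 20991 and 21122, a rise of 1.42 ± 0.12, while its dimmer probe set had a change of 4.32, so the size is uncertain. Ube2j1, a ubiquitin-conjugating enzyme of the ER membrane, read 2311 and 2574 against 5390 and 7755, a rise of 1.40 ± 0.20, or 2.64-fold. Edem2, which starts mannose trimming, read 2882 and 3127 against 1363 and 1262, a change of -1.19 ± 0.17. Ngly1, the cytosolic enzyme that strips N-glycans from exported proteins, read 9589 and 9620 against 4075 and 4685, a change of -1.13 ± 0.13. The calls on these 4 held under all 12 alternatives.

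Herpud2, a relative of Herpud1, changed by -0.47 ± 0.14 (adjusted p = 0.0472 in limma), a call lost in 7 of 12 alternatives. Derl2, a channel component, changed by -0.57, with -1.25 on its other probe set, and Ubxn8, which recruits the ATPase VCP, by 0.51. Aup1, a partner of Ube2g2, changed by 0.48. Each of these 3 calls was lost in 6 or more alternatives, among them the omission of either immobilized array. Syvn1, the ligase that Sel1l and Herpud1 serve, had a change of -0.13 ± 0.12 and did not pass. The list had 2 rises and 2 falls with either immobilized array left out.

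Among 15 tested genes for UPR sensors and signalling 7 rose and 2 fell, with a median of 0.24. Creb3l1 (OASIS), an ER-bound transcription factor cleaved like ATF6, read 866 and 774 against 14593 and 12447, a rise of 4.01 ± 0.16, or 16.2-fold (adjusted p = 4.1e-05 in limma). Its relative Creb3l2 rose by 1.39 ± 0.23. Atf6 itself rose by 0.76 ± 0.14 on its brighter probe set, the other having 0.27. Genes placed on the PERK side of the UPR did not all go the same way, and whether PERK acted on them was not tested. Atf4 rose by 1.57, Trib3 by 2.28, Ppp1r15a (GADD34), which reverses eIF2-alpha phosphorylation, by 1.97 ± 0.13, and Chac1 by 1.21. Ddit3 (CHOP), also on that side, changed by -0.97. Mbtps2, the protease that releases ATF6, changed by -0.54.

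The calls on Creb3l1, Trib3, Atf4 and Ppp1r15a held under all 12 alternatives. Those on Creb3l2 and Chac1 were lost with either immobilized array left out (adjusted p = 0.0631 and 0.0629, and 0.0688 and 0.0699, in limma), as was that on Mbtps2, and those on Atf6 and Ddit3 were lost without immobilized 2 (0.0908 and 0.0534). The list then had 5 rises and 1 fall without immobilized 1, and 4 and 0 without immobilized 2. Eif2ak3, the gene for PERK, had a change of -0.65 ± 0.22 and did not pass (adjusted p = 0.0658 in limma). Ern1, the gene for IRE1, was not analysed here.

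Of 33 genes for entry into the ER and N-glycosylation 2 rose and 1 fell, with a median of -0.05. Srp54a of the signal recognition particle rose by 0.49 and Sec61a1, the channel subunit, by 0.42, while Srp19 changed by -0.60. Other probe sets reached -0.0025 for Srp54a and -0.20 for Sec61a1, so not every probe set of either gene shows the rise. None of these 3 calls held with either immobilized array left out. The split of this list depended on the scaling: 7 genes fell after quantile normalization, and 4 rose and 0 fell after median centring.

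**Figure D4:**
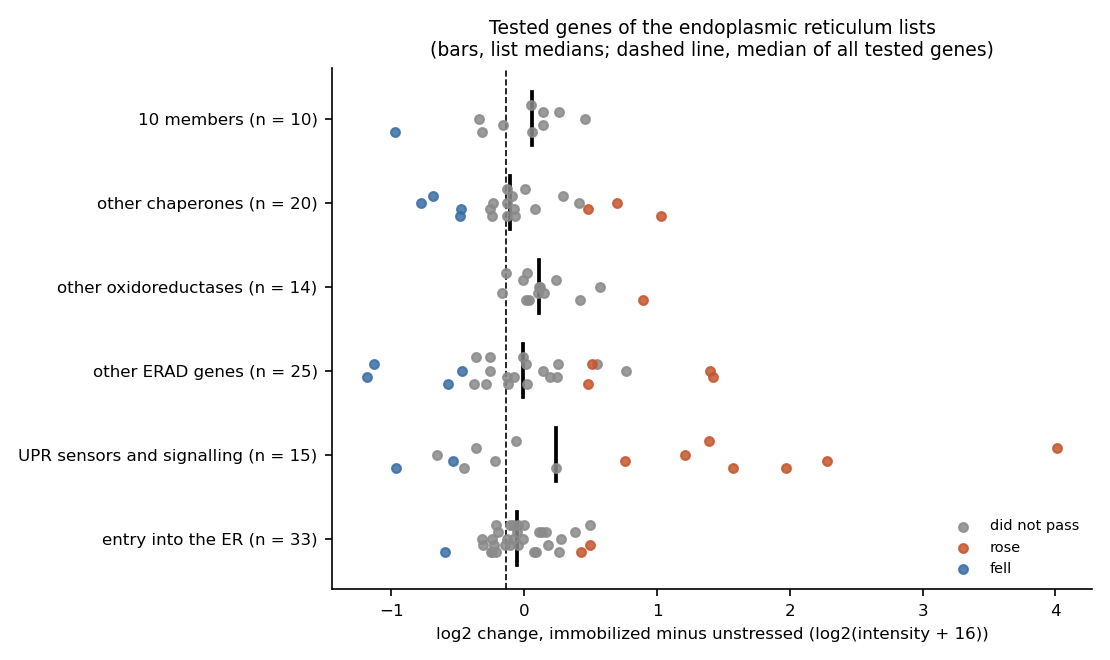
Log2 change of each tested gene in the member list and the 5 further lists, with a bar at each list's median and a dashed line at -0.14, the median of all tested genes. Of the 7 rises in UPR sensors and signalling the highest is Creb3l1 at 4.01, whereas the members lie between -0.97 and 0.46.

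Because 6 members carry an exact ERSE or ERSE-II, the other genes with either element were read as well, a step chosen after the members' values were seen. In all 38 genes held 1 of them, 28 were named on the array and 25 were tested: 1 rose, 3 fell and 21 did not pass, beside the 11.2% and 21.8% of all tested genes. Leaving out the 6 members, 19 were tested, of which 1 rose and 2 fell, with a median of -0.02. Zfand2a, a stress-inducible zinc finger gene, rose by 0.86 ± 0.19, a call lost on omitting immobilized 1 (limma adjusted p = 0.0984) or immobilized 2 (0.119). Pan2, a deadenylase subunit, changed by -1.23 ± 0.14 and Ankmy2 by -1.02 ± 0.15, the latter lost without immobilized 2 (0.0617).

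**Figure D5:**
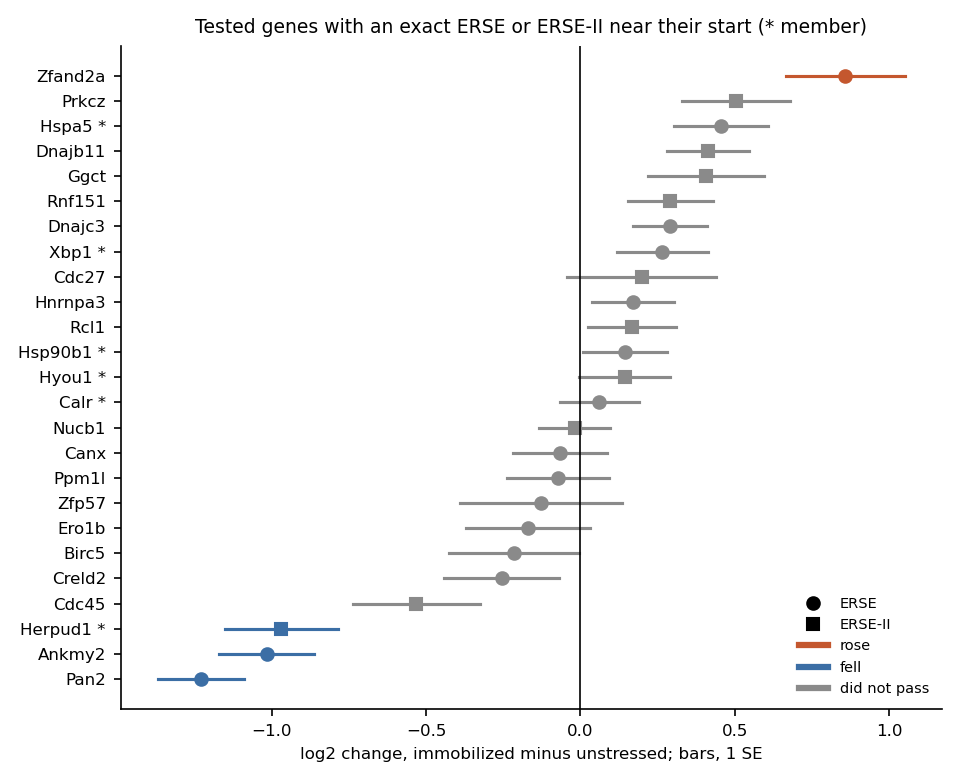
Log2 change ± 1 SE of the 25 tested genes whose promoter window holds an exact ERSE (circles) or ERSE-II (squares), with members starred. The genes run from -1.23 (Pan2) to 0.86 (Zfand2a), and 21 of them did not pass.

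Several measured facts stand beside these values. Intensity differed between arrays at the bright end, where 7 of the 12 member probe sets lie above percentile 95: its 99th percentile stood at 30002 and 31739 in the unstressed arrays against 36447 for immobilized 1 and 30549 for immobilized 2. The 3' over 5' ratio of the beta-actin control, a sign of RNA breakdown where it is high, was 1.62 to 2.15. The chromaffin cell markers Th, Dbh, Pnmt, Chga, Chgb, Slc18a1 and Ddc were all at or above percentile 97.2 and none of the 7 passed. Th, Dbh, Pnmt, Chga and Chgb lie above percentile 99.5, where 156 probe sets had log2 changes with an SD of 0.165 and 1.92% were called. With calls this rare there, not passing does not show that the levels of these markers held steady.

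Genes of the adrenal cortex were bright too in tissue labelled medulla. Cyp11a1, which starts steroid synthesis, read 58703 and 66853 against 57289 and 41966. Of 6 tested cortex markers only Nr5a1 passed (0.47, lost in 6 of 12 alternatives), and their median log2 change was -0.26. Cyp11b1 had the largest change of the 6, -0.64 ± 0.21, without overlap between groups, and did not pass (adjusted p = 0.0591 in limma). Cyp11a1, Cyp21a1, Star and Hsd3b1 also lie above percentile 99.5, where few probe sets were called. Cyp17a1 read within the range of the bacterial controls, which alone is no measure of cortex content. The summed intensity of the cortex list was 257152 to 292097 in the unstressed group and 207690 to 276726 in the immobilized group, with overlap. Of 6 tested endothelial markers Flt1 rose (1.45, lost in 1 of 12 alternatives) and Kdr changed by -0.79 (lost in 4), while other probe sets of these genes had 0.063 and -0.044. The list's sum was 36432 to 44593 against 33575 to 34224, without overlap, and its median log2 change was 0.17. Without Kdr the other 5 genes summed to 20602 and 22092 unstressed against 23795 and 22124 immobilized. In the glial list Gfap rose (1.76) and S100b changed by -0.59 (lost in 2 of 12), while none of the 6 leukocyte, 6 fibroblast and 2 antibody-secreting cell markers tested passed. Itgam and Cd79b read within the range of the bacterial controls on all arrays. The part of any of these cells in the members' values was not tested, and in bulk tissue fewer cells of a type and less RNA per cell cannot be told apart.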

How the data were processed

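Total RNA of rat adrenal medulla was measured on 4 single-colour arrays, grouped by the submitters' sample descriptions into 2 unstressed and 2 immobilized, with replicates numbered in accession order. The deposited values are linear intensities, 1 per probe set and array. How probes were summarised was not given in the sources used here. The columns share a trimmed mean to within 0.00572%, so the deposited scaling was kept. The 57 control probe sets were left out, 27 of them for Bacillus transcripts, which read 2.18 to 257.

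Intensities were turned into log2(intensity + 16), which shrinks the changes of dim probe sets. Those whose mean lay below the 40th percentile, near an intensity of 543.8, stayed out of the test, which left 18625. The comparison was a two-sided limma 3.58.1 fit (R 4.3.3, lmFit and eBayes, trend on), and p-values were adjusted by Benjamini-Hochberg across all of these probe sets, with a threshold of 0.05. An exact permutation test of 2 against 2 cannot go below 0.333, so none is reported. The script was tested on simulated data. Plots used matplotlib 3.10.9.

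Probe sets with 1 symbol in GEO's platform annotation were named, updated by Entrez identifier through the GRCr8 gene table (20758 of 20826 found). The members, lists and tests were chosen with earlier results of these data known. Named were all members, up to 6 called genes of each list with the largest changes, or the 2 largest where none was called, and called markers. Aup1, Herpud2, Mesd, Atf6, Ddit3, Mbtps2, Eif2ak3, Canx, Syvn1, Dnajb11, Dnajc3, Zfand2a, Pan2 and Ankmy2 were named after their values were seen. So were Mbtps1 and every named marker that was not called. Promoter windows are RefSeq's, searched for exact motifs on both strands, with base -1 just before the start. Alternatives were other scalings, offsets of 1 and 64, no filter or one at the 60th percentile, eBayes without trend or robust, leaving out each array, and averaging a gene's probe sets.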

Additional observations from a re-analysis of the deposited data

How the results depend on the processing

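With 2 arrays a group, small differences cannot be told from array spread, and omitting 1 array leaves a single array whose spread is taken from the other group. No paired analysis was possible because the replicate numbers were given in accession order and pair nothing. Over 145 alternative values of the members, 131 kept direction and side of the threshold, 1 lost its call, 5 gained one and 8 turned sign. For the other genes followed in this way, Mbtps1 of the UPR list among them, 409 of 502 values kept both, with 85 lost, 5 gained and 3 turned. Mbtps1 changed by -0.36 in the main setting and did not pass. Its values ran from -0.47 to -0.22, and its side of the threshold changed in 2 of 12 alternatives.

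After quantile normalization 1 member probe set and 1 member gene rose (Hspa5), 2 other oxidoreductases rose, and 7 ERAD genes and 7 entry genes fell. Median centring gave 1 member probe set and 1 member gene that rose (Hspa5), 1 chaperone that fell, 2 oxidoreductases that rose, 2 ERAD genes and 1 UPR gene that fell, and 4 entry genes that rose with 0 that fell. Without the filter 2 ERAD genes and 1 entry gene rose, and with it at the 60th percentile 2 ERAD genes rose. Without the intensity trend 2 chaperones fell, 2 ERAD genes rose and 2 fell, 1 UPR gene fell and 0 entry genes rose. With probe sets averaged by gene 0 entry genes rose. Over all tested probe sets the median change was -0.12 (log2), against -0.06 with quantile normalization and 0.02 with centring.

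With each array left out in turn, 785 to 2638 probe sets rose and 893 to 3800 fell. Member genes that rose were 0 to 1 and those that fell 0 to 1; member probe sets that rose were 0 to 1 and those that fell 0 to 2. The ranges for other chaperones were 0 to 4 rises and 1 to 4 falls, for oxidoreductases 1 to 2 rises and 0 falls, and for ERAD 2 to 4 rises and 2 to 3 falls. They were 4 to 7 rises and 0 to 3 falls for UPR signalling, and 0 to 2 rises and 0 to 1 falls for entry.

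None of the changes that turned sign had passed the test. After quantile normalization Hsp90b1 was -0.021, Calr -0.076 and brighter Pdia3 -0.086. With arrays left out in turn, brighter Pdia3 ran from -0.10 to 0.21, Calr from -0.0016 to 0.12, brighter Hyou1 from -0.027 to 0.31 and Canx from -0.22 to 0.090. The mean of the Hyou1 probe sets was -0.14. Centring turned Canx to 0.074 and Syvn1 to 0.013. The cause was not tested.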
